A study of Mus musculus with 12 samples.

Results

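The galectin genes were followed across both knockdowns, as all probes whose gene name in the array annotation begins with Lgals. This rule found 12 probes of 10 genes among 41174 probes and 27674 gene names. The genes were Lgals1, Lgals2, Lgals3, Lgals3bp, Lgals4 (2 probes), Lgals6, Lgals7, Lgals8 (2 probes), Lgals9 and Lgals12. Lgals3bp fits the rule by name only, since it encodes a secreted glycoprotein that binds galectin-3 and is not itself a galectin. The family was picked with the results of both knockdowns in view, so the calls of its members below describe the data and are no independent evidence that the family responds.

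Expression was measured on Agilent mouse oligonucleotide arrays in E14 mouse embryonic stem cells. The cells had received p400 esiRNA, Tip60 esiRNA or control EGFP esiRNA at 0.33 ng/µl with a lipid transfection reagent for 72 hr. An esiRNA is a mixture of siRNAs obtained by enzymatic digestion of long double-stranded RNA. The p400 samples were 4 two-colour arrays, each holding p400 and EGFP RNA, with p400 RNA in Cy5 on replicates 1 and 3 and in Cy3 on replicates 2 and 4. The Tip60 samples were 4 single-colour arrays, set against 4 single-colour EGFP arrays. The submitters left Tip60 replicate 3 out of their analysis as an outlier in intensity, so the Tip60 tests below use replicates 1, 2 and 4, and the value of replicate 3 is given beside those of the galectin probes. The submitters call the samples biological replicates. E14 is 1 cell line, no labelled group was untransfected, and whether the EGFP RNA of the two-colour arrays came from the cultures of the single-colour arrays is not stated.

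p400 (Ep400) is a SWI/SNF-family ATPase that remodels nucleosomes, and Tip60 (Kat5, named Htatip in the labels) is a histone acetyltransferase of the same complex. The comparisons asked which transcripts depend on each catalytic subunit in embryonic stem cells. Galectins are small lectins that bind beta-galactosides, chiefly N-acetyllactosamine units on cell-surface and secreted glycoproteins. They leave the cell without a signal peptide, cross-link glycoproteins outside it and also act in the cytosol and nucleus. By architecture they fall into prototype galectins with 1 carbohydrate recognition domain (encoded by Lgals1, Lgals2 and Lgals7), the chimeric galectin-3 with a collagen-like tail, and tandem-repeat galectins with a pair of domains (Lgals4, Lgals6, Lgals8, Lgals9 and Lgals12). Lgals4 and Lgals6 are closely related neighbouring duplicates known from the mouse digestive tract, and Lgals6 is present in some laboratory strains only.

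The sequences below are 60-base probes that lie in protein-coding sequence, shown because they define what was measured for the genes that the results turn on and for Lgals8, which was called in neither. They are the probes for Lgals4 (upstream of its other probe), Lgals6, Lgals9, Lgals3, Lgals7 and Lgals8 (the more upstream of its probes), read from the deposited array files.
Lgals4 A_52_P634250: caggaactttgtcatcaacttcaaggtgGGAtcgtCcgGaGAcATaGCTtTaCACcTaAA
Lgals6 A_52_P154741: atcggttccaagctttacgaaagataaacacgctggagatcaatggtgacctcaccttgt
Lgals9 A_51_P500813: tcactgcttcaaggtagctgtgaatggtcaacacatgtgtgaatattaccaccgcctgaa
Lgals3 A_51_P101929: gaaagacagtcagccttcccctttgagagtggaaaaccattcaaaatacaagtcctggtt
Lgals7 A_51_P302327: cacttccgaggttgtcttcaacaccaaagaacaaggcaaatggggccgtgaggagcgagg
Lgals8 A_51_P316981: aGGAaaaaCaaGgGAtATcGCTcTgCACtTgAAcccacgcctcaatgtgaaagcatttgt
Capitals mark the 19 of 33 aligned bases that the Lgals4 and Lgals8 probes share, the closest ungapped match among the 15 pairs of these 6 probes. The Lgals6 probe shares no run longer than 8 bases with either Lgals4 probe, as they come from different stretches of the transcripts. Because the Lgals4 and Lgals6 transcripts are close copies, RNA of one may bind a probe of the other, and the signals of these genes cannot be told apart with certainty.

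On build mm7, per the array annotation, the Lgals4 probes lie on the forward strand at chr7:25775064-25775315 and chr7:25775797-25775856. The first (A_52_P634250, "upstream" here) spans 252 genomic bases with its 60 and so crosses an intron. The second (A_51_P497100, "downstream" here) is a single block. The Lgals7 probe lies at chr7:25800197-25800256. The Lgals3 probe spans chr14:42712515-42713331, 817 genomic bases, and also crosses an intron. The Lgals9 probe lies on the reverse strand at chr11:79045037-79045096 and that of Lgals3bp at chr11:118501801-118501860. Lgals1 is measured at chr15:79013088-79013147 and Lgals2 at chr15:78933837-78933896. The Lgals8 probes lie on the reverse strand, upstream at chr13:12408485-12408544 (A_51_P316981) and downstream at chr13:12400819-12400878 (A_52_P598128), and the Lgals12 probe at chr19:7416794-7416853. The annotation gives no position for the Lgals6 probe.

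Of the 12 probes, 10 probes of 8 genes were well above background on enough arrays to be tested in each comparison. Lgals2 and Lgals12 were too dim in both. In p400 knockdown, 6 of the 10 tested galectin probes were called higher and 0 lower, where 18.1% of all 27962 tested probes were called higher and 15.0% lower. In Tip60 knockdown the counts were also 6 higher and 0 lower, where 13.2% of 25317 tested probes were called higher and 9.46% lower. A call is an adjusted p under 0.05 in limma, adjusted over all tested probes. Lower values with an unadjusted p under 0.05 also numbered 0 in each. The median log2 difference of the 10 probes was 0.76 in p400 knockdown, against -0.00 over all tested probes, and 0.61 in Tip60 knockdown, against 0.00 over all. Lgals4, Lgals6, Lgals9 and Lgals3 were called higher in both knockdowns, Lgals1 in p400 knockdown and Lgals7 in Tip60 knockdown. In all, 5 of the 10 probes were called higher in both, a share that was 9.06% over the 25151 probes tested in both. Since the family was chosen on these contrasts, the counts describe it and are not read against those percentages.

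The tandem-repeat galectins Lgals4 and Lgals6 differed most. On the downstream Lgals4 probe, the deposited processed signal was 22944, 33224, 33399 and 27115 in p400 RNA, against 2905, 2608, 2696 and 2977 in EGFP RNA of the same arrays (replicates 1 to 4). Every p400 value lay above every EGFP value, and all 4 arrays gave ratios of the same sign in both dye orientations. After background correction and loess normalization, the log2 ratios of p400 over EGFP were 2.93, 3.71, 3.58 and 3.07. Their mean was 3.32 ± 0.14 (SE, n = 4 arrays), a 10.0-fold difference, with an adjusted p of 0.000188. The upstream Lgals4 probe gave log2 ratios between 1.83 and 2.81 and a mean of 2.34 ± 0.18, or 5.06-fold, with an adjusted p of 0.00103. Both Lgals4 probes thus had the same direction on every array, while the size differed between them, and on both the ratios of replicates 2 and 3 exceeded those of replicates 1 and 4. The signal of the Lgals6 probe was 12948, 18608, 15638 and 14318 in p400 RNA, against 1520, 1619, 1601 and 1755 in EGFP RNA. Its log2 ratios were 3.07, 3.48, 3.26 and 2.79, with a mean of 3.15 ± 0.12 (8.87-fold, adjusted p = 0.000165). Ranked by log2 ratio from the highest, the downstream Lgals4 probe was 48th of the 27962 tested, the Lgals6 probe 56th and the upstream Lgals4 probe 118th. The average ratio with p400 RNA in Cy5, against that with p400 RNA in Cy3, was 3.25 and 3.39 on the downstream Lgals4 probe, 2.36 and 2.32 on the upstream one, and 3.16 and 3.13 on the Lgals6 probe. Swapping the dyes therefore moved these log2 ratios by at most 0.14.

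**Figure D1:**
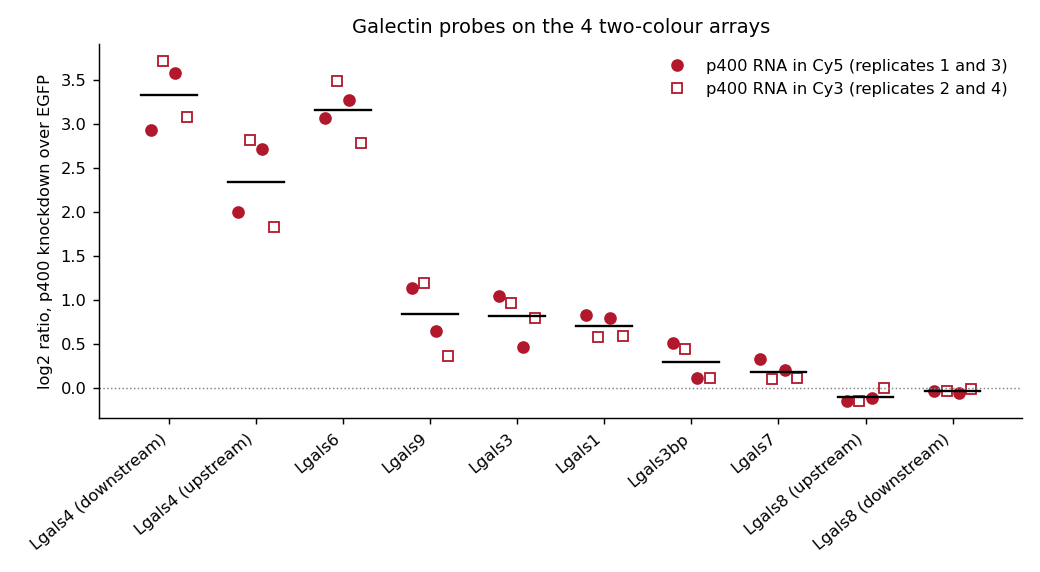
Log2 ratio of p400 knockdown over EGFP for the 10 tested galectin probes on the 4 two-colour arrays, with filled circles for p400 RNA in Cy5, open squares for p400 RNA in Cy3 and a bar at the mean. The 3 Lgals4 and Lgals6 probes lie between 1.83 and 3.71 on every array, Lgals9, Lgals3 and Lgals1 between 0.37 and 1.20, and both Lgals8 probes between -0.15 and 0.01.

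In Tip60 knockdown the same pair of genes had the highest differences of the family. Levels on the single-colour arrays are log2 processed signals minus the array's 75th percentile. On the downstream Lgals4 probe they were 4.05, 4.11 and 4.24 in Tip60 replicates 1, 2 and 4, against 1.64, 1.69, 1.71 and 1.62 in the 4 EGFP samples. Tip60 replicate 3 stood at 3.98, beside the other Tip60 samples. The groups did not overlap, and the difference was 2.47 ± 0.06 (SE, n = 3 and 4), or 5.54-fold, with an adjusted p of 9.87e-07. The upstream Lgals4 probe stood at 0.09, -0.00 and 0.05 in Tip60 samples (replicate 3 at 0.07), against -2.27, -2.00, -2.26 and -2.09 in EGFP samples. This difference was 2.20 ± 0.08, or 4.60-fold (adjusted p = 3.77e-06). Lgals6 stood at 2.87, 2.81 and 3.00 in Tip60 samples, against 0.30, 0.36, 0.32 and 0.33 in EGFP samples. Its difference was 2.56 ± 0.06, or 5.91-fold (adjusted p = 8.25e-07), and the left-out Tip60 replicate 3 stood at 2.88. On each of these probes all 4 Tip60 samples lay above all 4 EGFP samples. Ranked from the highest difference, the Lgals6 probe was 147th of 25317 tested probes, the downstream Lgals4 probe 169th and the upstream one 223rd. Of the 10 galectin probes, 3 were called and at least 2-fold higher in both knockdowns, a share that was 1.45% over all probes tested in both. Within each knockdown these calls numbered 3 in p400 knockdown, as for 2.36% of all tested probes, and 4 in Tip60 knockdown, with Lgals9 added, as for 3.12%.

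The galectin arrays of the Tip60 comparison lay on 2 slides, each with both groups, and the differences held within each. On slide 2 (Tip60 replicates 2 and 4, EGFP replicates 1 and 3) the downstream Lgals4 probe differed by 2.50, the upstream one by 2.29 and Lgals6 by 2.59. On slide 3 (Tip60 replicate 1, EGFP replicates 2 and 4) the differences were 2.39, 2.13 and 2.52. The p400 arrays shared 1 slide. The size of a difference was not tested between the knockdowns, which were hybridised in different array formats.

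**Figure D2:**
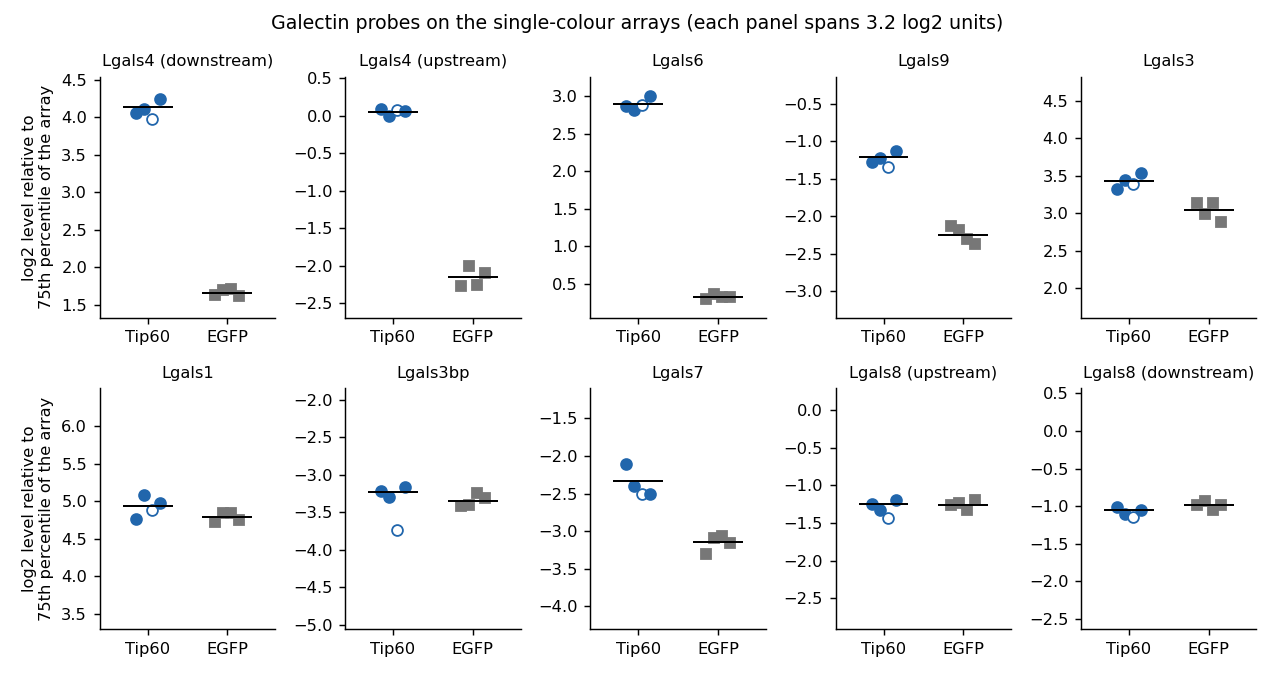
Log2 level relative to the 75th percentile of the array for the 10 tested galectin probes, with Tip60 samples (circles, replicate 3 open and left out of the bar) left of EGFP samples (squares) and a bar at each mean; every panel spans the same number of log2 units. Tip60 samples lie above EGFP samples without overlap for Lgals4, Lgals6, Lgals9, Lgals3 and Lgals7, and the groups overlap for Lgals1, Lgals3bp and both Lgals8 probes.

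Lgals9 encodes galectin-9, a tandem-repeat galectin known as a ligand of the T-cell receptor TIM-3. Its processed signal was 357, 322, 220 and 282 in p400 RNA, against 110, 95.3, 113 and 106 in EGFP RNA, with no overlap. The log2 ratios were 1.14, 1.20, 0.65 and 0.37, with a mean of 0.84 ± 0.15, or 1.79-fold (adjusted p = 0.00906). The background offset of 50 draws the ratios of such dim probes towards 0, and the deposited ratios gave 1.46 (adjusted p = 0.00159). In Tip60 knockdown its levels were -1.28, -1.22 and -1.13 (replicate 3 at -1.35), against -2.13, -2.19, -2.30 and -2.36 in EGFP samples. The groups did not overlap, and the difference was 1.03 ± 0.08, or 2.05-fold (adjusted p = 0.000116). It was 1.04 within slide 2 and 0.99 within slide 3.

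Lgals3 encodes galectin-3, which also binds glycoproteins inside damaged lysosomes and takes part in mRNA splicing. Its signal was 11267, 10555, 9654 and 11260 in p400 RNA, against 5378, 5621, 6937 and 6285 in EGFP RNA. Every p400 value again exceeded every EGFP value. The log2 ratios of 1.04, 0.97, 0.47 and 0.80 averaged 0.82 ± 0.11, or 1.77-fold (adjusted p = 0.00347). In Tip60 knockdown the levels were 3.33, 3.44 and 3.53 (replicate 3 at 3.40), against 3.14, 2.99, 3.14 and 2.89 in EGFP samples. The groups did not overlap, and the difference was 0.39 ± 0.09, or 1.31-fold (adjusted p = 0.0164). Without Tip60 replicate 4 it was 0.34, with an adjusted p of 0.0622, and with the replicate number as a block 0.43, with an adjusted p of 0.101. It was also not called with median centring of the arrays, where the difference was 0.19 (adjusted p = 0.157).

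The prototype galectins differed between the knockdowns in which of them was called. Lgals1, which encodes galectin-1, had signals of 16128, 12779, 16759 and 15011 in p400 RNA, against 9027, 8939, 9537 and 10116 in EGFP RNA, with no overlap. Its log2 ratios of 0.83, 0.58, 0.80 and 0.60 averaged 0.70 ± 0.06, or 1.63-fold (adjusted p = 0.00145). In Tip60 samples its levels were 4.76, 5.08 and 4.98 (replicate 3 at 4.88), against 4.72, 4.84, 4.85 and 4.75 in EGFP samples. These groups overlapped, and the difference of 0.15 ± 0.08 was not called (adjusted p = 0.245). Lgals7, known from stratified epithelia and as a p53-induced gene, had log2 ratios of 0.33, 0.10, 0.21 and 0.11 in p400 knockdown. All 4 were above 0, but the mean of 0.19 ± 0.07 missed the threshold (adjusted p = 0.0702). With the deposited ratios it was 0.42 and called (adjusted p = 0.0334), and in all Lgals7 was called higher under 4 of 13 alternatives in p400 knockdown. In Tip60 samples the Lgals7 levels were -2.10, -2.40 and -2.50 (replicate 3 at -2.51), against -3.30, -3.09, -3.06 and -3.15 in EGFP samples. The groups did not overlap, and the difference was 0.82 ± 0.11, or 1.76-fold (adjusted p = 0.00195). It was 0.73 within slide 2 and 1.02 within slide 3. Whether Lgals1 or Lgals7 responds differently to the knockdowns was not tested.

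The remaining tested probes were not called in either knockdown in the main fits. Lgals8, a tandem-repeat galectin that marks damaged vesicles for autophagy, had mean log2 ratios of -0.10 ± 0.07 (adjusted p = 0.291) on its upstream and -0.03 ± 0.06 (adjusted p = 0.762) on its downstream probe in p400 knockdown. In Tip60 knockdown the differences were 0.00 ± 0.06 (adjusted p = 0.978) and -0.07 ± 0.05 (adjusted p = 0.416), with overlapping groups. The left-out Tip60 replicate 3 stood at -1.43 and -1.14, below the EGFP ranges of -1.33 to -1.19 and -1.05 to -0.93. Lgals3bp had log2 ratios of 0.51, 0.45, 0.11 and 0.12 in p400 knockdown, with a mean of 0.30 ± 0.10 (adjusted p = 0.0583). Without p400 replicate 3 the mean was 0.40 and was called (adjusted p = 0.0356), and in all Lgals3bp was called higher under 3 of 13 alternatives in p400 knockdown. In Tip60 knockdown Lgals3bp differed by 0.12 ± 0.07 (adjusted p = 0.244), and the Tip60 replicate 3 left out of the fit stood at -3.74, below the EGFP range of -3.42 to -3.24. In all, 8 of the 10 probes had log2 ratios above 0 on all 4 p400 arrays, as did 26.3% of all tested probes, and 1, the downstream Lgals8 probe, lay below 0 on all 4, as did 25.6%. In the Tip60 comparison 6 of the 10 lay higher without overlap, as did 18.0% of all tested probes, and 0 lay lower without overlap, as did 16.3%.

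Lgals2 and Lgals12 were not measured reliably. The Lgals2 signal was between 8.70 and 47.9 in p400 RNA and between 7.18 and 34.8 in EGFP RNA, well above background on 2 of 4 arrays in each. On the single-colour arrays it was between 9.36 and 22.2 in the 4 Tip60 samples and between 4.55 and 17.7 in the EGFP samples, and was well above background on none. Lgals12, known from adipose tissue, was well above background on 1 of 4 two-colour arrays in either RNA and in no single-colour EGFP sample.

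**Figure D3:**
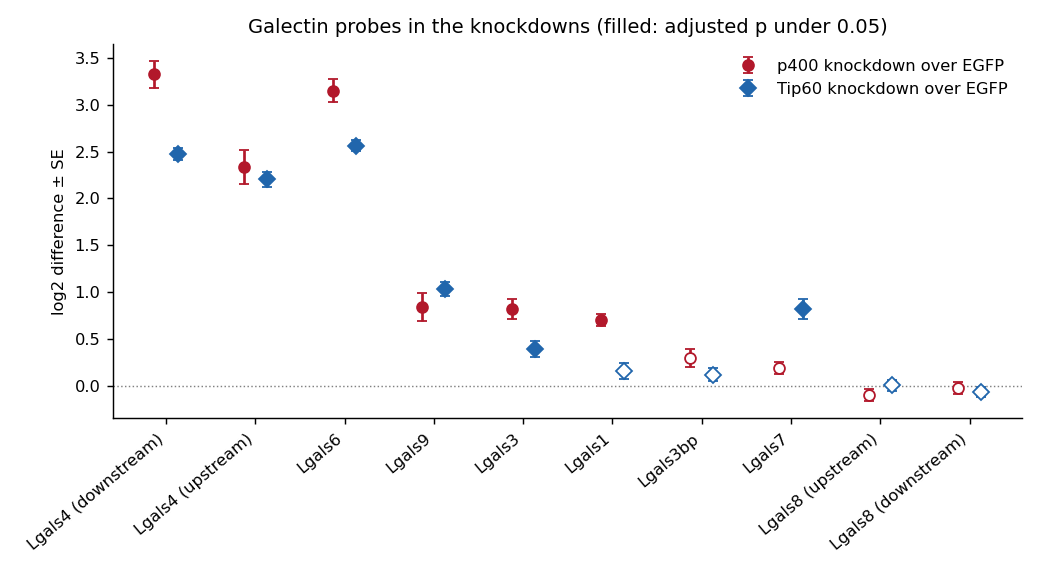
Log2 difference ± SE of each tested galectin probe, with p400 knockdown over EGFP (circles, n = 4 arrays) left of Tip60 knockdown over EGFP (diamonds, n = 3 and 4 samples) and filled marks for an adjusted p under 0.05. Both Lgals4 probes and Lgals6 lie between 2.20 and 3.32 in either knockdown, and Lgals1 and Lgals7 are filled in 1 knockdown each.

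Across the series, 22188 to 30752 of the 43379 spots per array that are no controls were well above background, with Tip60 replicate 3 the lowest. The targeted genes were lower on most of their probes. Ep400 had log2 ratios of -0.65, -0.77, -0.24 and -0.67 on its brightest probe in p400 knockdown (adjusted p = 0.00528). Of its 3 tested probes 2 were called lower, and the third averaged 0.22 (adjusted p = 0.0787). Kat5 stood at -0.19, -0.30 and -0.27 in Tip60 samples (replicate 3 at 0.04), against 1.16, 1.15, 1.22 and 1.39 in EGFP samples (difference -1.49, adjusted p = 1.53e-05). In p400 knockdown Kat5 was also lower, by a log2 difference of -0.43 (adjusted p = 0.0107). All 8 embryonic stem cell markers of the list used, such as Pou5f1 and Nanog, were well above background in every EGFP sample, and 2 of 8 were called lower in p400 knockdown (Sox2 and Esrrb) and 2 in Tip60 knockdown (Klf4 and Sox2), where Tdgf1 was called higher. Over all genes 14.9% were called lower in p400 and 9.48% in Tip60 knockdown. In p400 knockdown 0 of these markers were called lower by limma without replicate 2, 3 or 4. Lower calls over all 27962 probes then numbered 1917, 3309 and 2630, against 4208 in the main fit.

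Genes were ranked by the root mean square distance of their values from those of Lgals6 and Lgals4 (4 log2 ratios of p400 and 3 Tip60 levels minus the mean EGFP level), over 16439 genes tested in both comparisons. Closest to Lgals6 were Cacna1s, a skeletal muscle calcium channel subunit, at 0.156 log2 units, Lgals4 at 0.201 and LOC665756, a predicted gene, at 0.262. Closest to Lgals4 were Cacna1s at 0.159 and Lgals6 at 0.201. Cacna1s differed by 3.23 in p400 knockdown and by 2.43 in Tip60 knockdown on the log2 scale. The ranking describes these 7 values only.

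Markers of other cell types were set beside the galectins, since some galectins are abundant in them. Bulk RNA cannot tell more cells of a type from more RNA per cell. All 6 measured 2-cell-like markers, genes such as Zfp352, Zscan4c and Tcstv3 that mark a rare state of cultured embryonic stem cells, were called higher in both knockdowns. Genes here are represented by their brightest tested probe, and 20.1% of 18702 genes were called higher in p400 knockdown and 14.8% of 16964 in Tip60 knockdown. Zfp352 differed by 4.52 (p400) and 3.53 (Tip60), Zscan4c by 4.37 and 2.16, and Tcstv3 by 4.29 and 2.60 on the log2 scale. The summed signal of the 6 genes was between 325549 and 594967 in p400 RNA, against 18870 to 39877 in EGFP RNA, and between 260599 and 273334 in Tip60 samples, against 41218 to 52050 in single-colour EGFP samples. Their part in the galectin differences was not tested.

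Primitive endoderm markers were called higher for 5 of 7 tested genes in p400 knockdown (Gata6 by 1.26, Sox17 by 1.01, Sparc by 0.88) and for 6 of 6 in Tip60 knockdown (Sox17 by 1.18, Foxa2 by 0.81, Sparc by 0.58). Their summed signal was between 8714 and 14262 in p400 RNA, against 4477 to 7096 in EGFP RNA, and between 17980 and 23355 in Tip60 samples, against 10086 to 16604 in EGFP samples. On the single-colour arrays Sparc stood at log2 levels of 3.24 to 4.19 and the other tested markers at -1.53 or below. The single-colour sums therefore mostly follow Sparc. Trophectoderm markers were called higher for 4 of 7 and lower for 1 in p400 knockdown, and for 3 and 1 in Tip60 knockdown. With median centring 3 of 6 primitive endoderm and 0 of 7 trophectoderm markers were called higher in Tip60 knockdown by limma, and the same counts held with the replicate block. Over all probes 7.42% and 7.32% were called higher in these settings, against 13.2% in the main fit. Relative to all genes, the primitive endoderm median was 0.52 in the main fit, 0.52 with median centring and 0.56 with the block. The trophectoderm median was 0.35, 0.35 and 0.31. For keratinocytes, where Lgals7 is abundant, 3 of 4 tested markers were called higher in p400 knockdown and 2 of 4 in Tip60 knockdown. Ivl and Trp63 were well above background in no single-colour EGFP sample, and 4 of the 6 listed genes in all of them. The keratinocyte count was 1 in p400 knockdown without replicate 2, and 0 in Tip60 knockdown without Tip60 replicate 2, Tip60 replicate 4 or EGFP replicate 4 and with the replicate block. Over all probes, too, fewer were called higher in each of these settings than in the main fit. For intestinal epithelium, where Lgals4 is abundant, 2 of 5 were called higher in p400 knockdown (Muc13 by 0.43, Krt20 by 0.27) and 2 of 4 in Tip60 knockdown. With only probes well above background in both RNAs of all p400 arrays, 3 were tested and 1 was called higher. The p400 count was 0 without replicate 2 or replicate 3 and 1 without replicate 1 or replicate 4. Higher calls over all probes were also fewer with any p400 replicate left out. The Tip60 calls were Vil1, by 0.48, and Cdx1, by 1.51, a size that rests on EGFP signals not well above background. Cdx1 was well above background on the 3 Tip60 arrays and on 0 EGFP arrays, so it entered the test through the Tip60 samples alone. Fabp1, Cdx1 and Muc13 were well above background in no single-colour EGFP sample, and 2 of the 6 listed genes in all of them. The summed signal of the intestinal list was between 538 and 665 in p400 RNA, against 493 to 617 in EGFP RNA, and between 516 and 719 in Tip60 samples, against 361 to 483 in EGFP samples. Fibroblast markers, where Lgals1 is abundant, were called higher for 3 of 5 tested genes in p400 knockdown (Thy1 by 1.43, Col1a1 by 0.80, Col1a2 by 0.49). In Tip60 knockdown Thy1 alone was called higher, by 1.25. Dcn, Lum and Postn were well above background in no single-colour EGFP sample, and 4 of the 8 listed genes in all of them. Of the macrophage and blood markers, 0 of 3 tested were called by limma in p400 knockdown and 0 of 2 in Tip60 knockdown (1 in each, Cd14, had an unadjusted p under 0.05). Adgre1 and Lyz2 were well above background in no single-colour EGFP sample, and 2 of the 7 listed genes in all of them. The part of these cell types in the galectin differences was not tested.

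Genes that neighbour Lgals4, Lgals9, Lgals3 and Lgals1 were counted by the same calls. Of 28 tested, 4 were called higher and 8 lower in p400 knockdown, against 20.1% and 14.9% of all genes, and 5 higher and 3 lower in Tip60 knockdown, against 14.8% and 9.48%. The 28 include Lgals7, itself a galectin chosen on these contrasts and 1 of the 5 called higher in Tip60 knockdown. In RefSeq's order of protein-coding genes (GRCm38.p6), Lgals7 is the gene after Lgals4. Lgals6 is not in that order, so this neighbouring duplicate is not among the genes counted here. Of the 4 genes on each side of Lgals4, 1 of 8 tested was called higher and 3 lower in p400 knockdown, with log2 differences between -0.80 and 0.32. In Tip60 knockdown 2 were called higher, Lgals7 and Actn4, and 1 lower, with differences between -0.22 and 0.82. The nearest gene on the other side, Ech1, differed by -0.80 in p400 knockdown (adjusted p = 0.00242) and by -0.22 in Tip60 knockdown (adjusted p = 0.035). Around Lgals9, 1 of 6 tested neighbours was called higher in each knockdown, the adjacent Ksr1, a kinase scaffold of the Ras pathway, by 0.91 in p400 knockdown and 0.97 in Tip60 knockdown, while Nf1 was called lower in Tip60 knockdown by -0.30 (adjusted p = 0.0364). Around Lgals3, 2 of 7 tested neighbours were called higher in both, Fbxo34 by 1.17 and 0.56 and Atg14, an autophagy gene, by 0.78 and 0.34. On the same side of Lgals3, Dlgap5 differed by -0.42 and Ktn1 by -0.49 in p400 knockdown, both called lower. Around Lgals1, 3 of 7 tested neighbours were called lower in p400 knockdown, where all 7 differed by -0.57 to 0.12, and 1 in Tip60 knockdown, where they differed by -0.23 to 0.05. These neighbours were looked at after the galectin values were known, and those named here were chosen for their values.

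**Figure D4:**
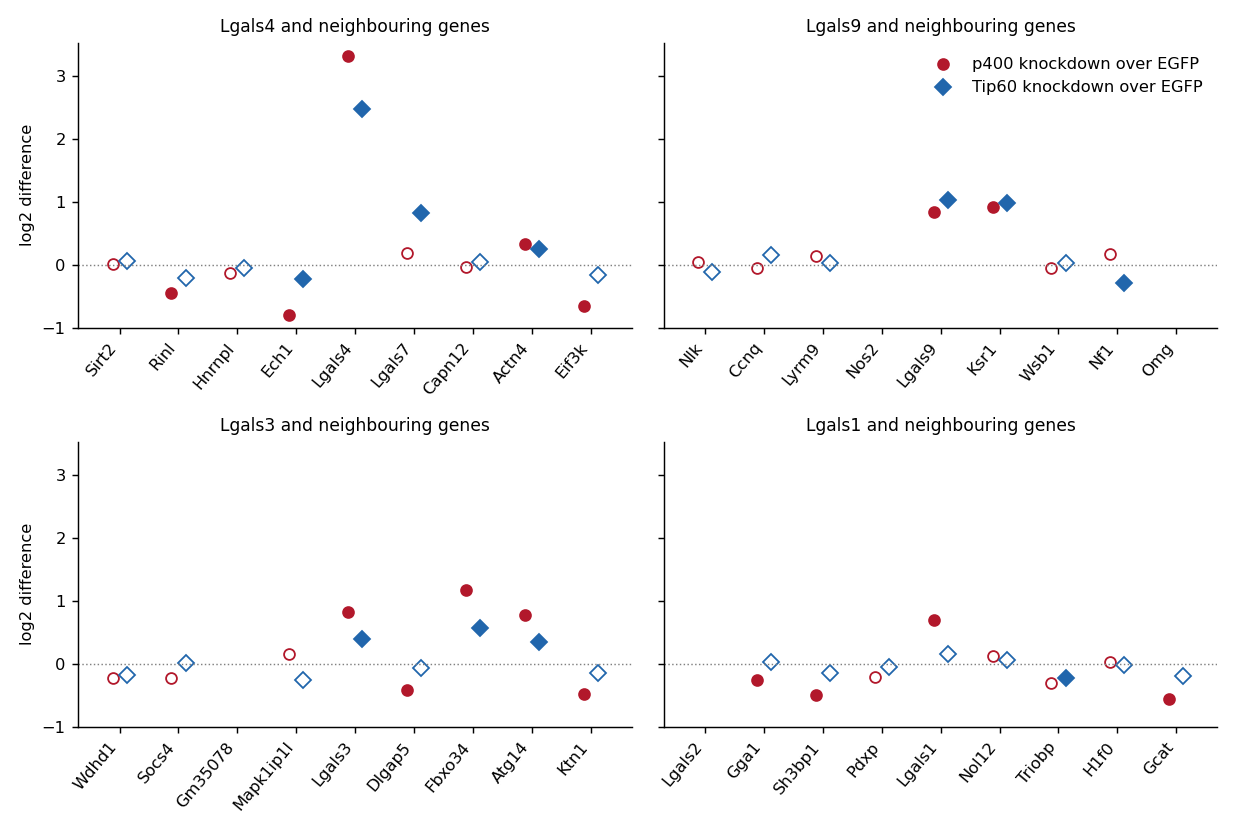
Log2 difference of Lgals4, Lgals9, Lgals3 and Lgals1 and of the 4 protein-coding genes on either side of each, in genomic order, with circles for p400 knockdown over EGFP, diamonds for Tip60 knockdown over EGFP and filled marks for an adjusted p under 0.05; genes with no mark were not tested. Lgals4 stands above all of the neighbours shown, while Ksr1 stands near Lgals9 and Fbxo34 and Atg14 near Lgals3. Lgals6 is not in the gene order used and is not shown.

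Promoter sequences were in the RefSeq table (GRCm38.p6) for 7 of the 10 genes. The 250 bases before the start are shown for Lgals4, Lgals9 and Lgals3, the called genes found there that were higher in both knockdowns, with CpG dinucleotides in capitals. Lgals9 lies on the reverse strand, and each sequence reads towards the gene.
Lgals4 promoter, chr7:28833544-28833793: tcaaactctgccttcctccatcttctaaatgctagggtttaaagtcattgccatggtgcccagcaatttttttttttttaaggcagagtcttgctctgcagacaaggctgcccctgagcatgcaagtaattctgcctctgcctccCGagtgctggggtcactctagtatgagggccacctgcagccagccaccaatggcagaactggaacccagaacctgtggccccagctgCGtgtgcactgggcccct
Lgals9 promoter, chr11:78984925-78985174: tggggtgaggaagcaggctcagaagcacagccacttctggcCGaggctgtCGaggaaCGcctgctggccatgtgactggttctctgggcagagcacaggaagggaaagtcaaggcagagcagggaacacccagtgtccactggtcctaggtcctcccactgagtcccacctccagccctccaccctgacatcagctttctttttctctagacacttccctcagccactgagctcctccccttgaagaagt
Lgals3 promoter, chr14:47373610-47373859: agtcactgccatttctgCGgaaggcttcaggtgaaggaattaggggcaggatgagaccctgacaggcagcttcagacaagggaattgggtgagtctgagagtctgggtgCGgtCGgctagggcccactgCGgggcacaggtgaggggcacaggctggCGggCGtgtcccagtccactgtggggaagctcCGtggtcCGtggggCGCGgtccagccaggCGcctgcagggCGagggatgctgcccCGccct
The Lgals4 promoter holds 2 CpG, fewer than the median of 6 over 32851 promoters, and 18.8% of these have fewer. Lgals9 has 3 CpG (29.0% have fewer) and Lgals3 has 13 (68.5% have fewer). The others hold 2 (Lgals3bp), 4 (Lgals8), 5 (Lgals7) and 6 (Lgals2). All 3 promoters shown lie within the middle range of all promoters, whose quartiles are 2 and 16 CpG. The letters TATAAA, searched on both strands, are in none of the 7 windows and in 12.4% of all, and the palindrome CACGTG is in none of the 7 and in 6.02% of all.

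Enzymes that build or cap the glycans which galectins bind were examined as a list of 22 genes. In p400 knockdown 4 were called higher and 10 lower, where 20.1% of all genes were called higher and 14.9% lower. For Gcnt1 and B4galt1, both among those lower, the brightest tested probe differed between the comparisons. On the probe used for Tip60, Gcnt1 had p400 log2 ratios of 0.01, 0.01, 0.28 and 0.10. B4galt1 had -0.30, -0.30, -0.11 and 0.10 on its own. The list's median log2 difference was -0.22, against 0.01 over all genes. In Tip60 knockdown 3 of 21 were called higher and 8 lower, where 14.8% of all genes were higher and 9.48% lower, and the median was -0.18, against 0.01 over all genes. St3gal1, a sialyltransferase that caps O-glycan galactose, differed by 0.96 in p400 and 0.73 in Tip60 knockdown. St3gal6, which caps N-acetyllactosamine with sialic acid, differed by 0.42 and 0.69, and Mgat4a, which adds a branch to N-glycans, by 0.64 and 0.33. Among those called lower, B3gnt2, the main poly-N-acetyllactosamine synthase, had log2 ratios of -0.68, -0.59, -0.56 and -0.60 on the 4 p400 arrays and a mean of -0.61 (adjusted p = 0.00215). B3gnt5, which starts lacto-series glycolipids, differed by -0.60 and Mgat4b, the other enzyme of that branch, by -0.52 in p400 knockdown. In Tip60 knockdown B4galt2, a galactosyltransferase, differed by -0.40, St6gal1, whose sialic acid blocks binding of galectin-1, by -0.40 and St3gal3, another sialyltransferase, by -0.38. The settings tried on this list, the next and the marker lists were chosen after seeing the data, and the number of enzymes called lower changed with them. In p400 knockdown it was 2 with arrays scaled to a common spread and between 4 and 9 with 1 array left out (4 without replicate 2). Lower calls over all 27962 probes were 1401 with a common spread and 1917 without replicate 2, against 4208 in the main fit. Relative to that of all genes, the list's median was -0.200 and -0.207 there, against -0.225 in the main fit. In Tip60 knockdown it was 0 within slide 2, 0 with the replicate block and 2 without the filter on dim probes, and 4 without Tip60 replicate 4. Lower calls over all probes were 567 of 25305, 393 of 25315, 1011 of 41174 and 1334 of 25315 in these settings in turn. The main fit had 2395 of 25317. Relative to that of all genes, the list's median was -0.189 within slide 2, -0.156 with the block and -0.185 without the filter. It was -0.185 in the main fit.

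**Figure D5:**
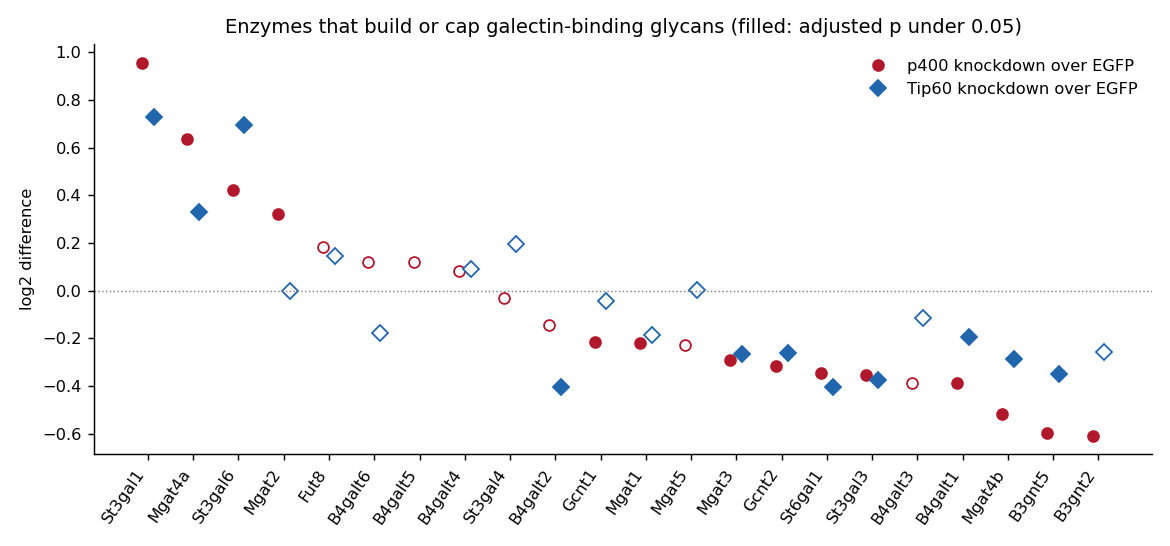
Log2 difference of the 22 enzymes of galectin-binding glycans, ordered by the value in p400 knockdown, with circles for p400 knockdown over EGFP, diamonds for Tip60 knockdown over EGFP and filled marks for an adjusted p under 0.05. St3gal1, Mgat4a and St3gal6 are filled and above 0 in both knockdowns, and B3gnt2 is the lowest in p400 knockdown at -0.61. Gcnt1 and B4galt1 are shown by different probes in the knockdowns.

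Of 25 glycoproteins and other partners known to bind galectins, 22 were tested in each comparison. In p400 knockdown 8 were called higher and 4 lower, where 20.1% of all genes were called higher and 14.9% lower. With only probes well above background in both RNAs of all p400 arrays, 20 were tested, of which 7 were called higher and 4 lower. In Tip60 knockdown 6 were called higher and 3 lower, where 14.8% of all genes were called higher and 9.48% lower. The median log2 difference was 0.07 in p400 and 0.00 in Tip60 knockdown, against 0.01 over all genes in each. Thy1, a surface glycoprotein that binds galectin-1, differed by 1.43 in p400 knockdown and by 1.25 in Tip60 knockdown. Itga5, the fibronectin receptor subunit, differed by 0.55 and P4hb, the disulfide isomerase that galectin-9 binds, by 0.38 in p400 knockdown. In Tip60 knockdown Nrp1, a receptor bound by galectin-1, differed by 1.46, a size that rests on EGFP signals not well above background. It was well above background on the 3 Tip60 arrays and on 0 EGFP arrays, so it entered the test through the Tip60 samples alone and counts among the 6 for that reason. Pdpn, a mucin-type partner of galectin-8, differed by 0.53 in Tip60 knockdown. Among those called lower, Mcam, a surface partner of galectin-1 and galectin-3, differed by -0.74, the matrix protein Fn1 by -0.68 and the lysosomal glycoprotein Lamp2 by -0.64 in p400 knockdown. In Tip60 knockdown Egfr differed by -0.39, Fn1 by -0.28 and Lamp2 by -0.25. With arrays centred on their median, 5 were called higher and 9 lower in p400 knockdown and 3 and 8 in Tip60 knockdown. Over all probes, 3917 of 27962 were then called higher and 9584 lower in p400 knockdown. In Tip60 knockdown 1878 of 25317 probes were higher and 7448 lower. The median over all genes was then -0.11 (p400) and -0.20 (Tip60), and the list's median relative to it was -0.068 and -0.002. In p400 knockdown 5 were called higher and 5 lower without replicate 1, 2 and 5 without replicate 2, 2 and 5 without replicate 3, and 4 and 4 without replicate 4. In Tip60 knockdown 3 were called higher and 0 lower within slide 2 and with the replicate block, and with 1 sample left out 3 to 5 were called higher and 1 to 2 lower. The balance of calls in this list therefore changed with the centring, which shifted all genes, and with single arrays. Over all probes fewer were also called with 1 array left out, within slide 2 and with the replicate block.

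A pair of related genes falls outside the name rule. Grifin, a galectin-related lens protein that lacks lectin activity in mammals, had log2 ratios of 0.94, 0.55, 0.73 and 0.19 in p400 knockdown and a mean of 0.60 (adjusted p = 0.00464). Its levels were -3.35, -3.33 and -3.81 in Tip60 samples (replicate 3 at -3.70), against -4.84, -5.11, -4.58 and -4.74 in EGFP samples, without overlap (difference 1.32, adjusted p = 0.00127). Lgalsl, a galectin-like protein without sugar binding, was lower in p400 knockdown by a log2 difference of -0.30 (adjusted p = 0.0184), a call lost without replicate 1, 2 or 4, and its difference in Tip60 knockdown was -0.10 (adjusted p = 0.447). The median of the 2 genes in Tip60 knockdown was 0.61 in the main fit. It was 0.20 with normexp and quantile normalization and 0.23 with the series matrix, with 1 called higher in each. The size for the dim Grifin probe may thus depend on the processing.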

How the data were processed

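The scanner files were made with Agilent Feature Extraction 9.5.1.1, per the file headers. Intensity columns as deposited are the mean signal, the median background and the processed signal, which the authors' software background-subtracted and detrended, and dye-normalized on two-colour arrays. The deposited LogRatio column is a log10 ratio of red over green. The authors' series matrix, as deposited, is on a log2 scale, and how it was normalized is not given in the sources used here. Its column medians are 0.00 to 0.01 on p400 arrays, as ratios of p400 over EGFP, and 7.26 to 7.27 on single-colour arrays.

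For p400, mean signals were corrected with normexp (offset 50) and normalized by loess with control spots at weight 0, and a limma 3.58.1 model (R 4.3.3) was fitted with a dye term. For Tip60, log2 processed signals minus each array's 75th percentile were compared with lmFit and eBayes, replicates 1, 2 and 4 against EGFP replicates 1 to 4. Control spots (1639 an array) and outlier-marked spots did not enter the fits. Testing required a spot well above background on 3 or more arrays of the knockdown or the EGFP RNA, so a gene dim in EGFP RNA was tested only where bright in knockdown RNA. Adjusted p values are two-sided Benjamini-Hochberg values over all tested probes. Gene names came from accession (22951 probes), symbol (6661) or synonym (3097) in RefSeq, or from the file (8465). The fits were tested on simulated data.

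The members and lists were chosen with earlier results of these data known. All Lgals probes are named. So are, for Lgals4 and Lgals6, the 3 genes nearest in values (1 of those of Lgals4 is not reported here), and up to 3 called members of each list per direction and knockdown. The main fit did not pair the Tip60 and EGFP samples by replicate number, since the labels share only numbers. Deviations of same-numbered samples correlated at -0.26, -0.33 and -0.12. Each such pair lay on different slides, so these correlations cannot show whether the cultures were paired. The number of arrays limits the precision. Alternatives covered background correction, normalization, filter, slide, samples and each array left out.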

Additional observations from a re-analysis of the deposited data

Results flagged for a closer look

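The Lgals12 signal on Tip60 replicate 3, an array that the fits leave out, was 226 and well above background, where the 4 EGFP samples had 4.21 to 7.02. Tip60 replicate 1 had 34.5, also well above background, and Tip60 replicates 2 and 4 had 6.99 and 5.09, which were not. The Lgals2 log2 ratio on p400 replicate 3 was -0.15, where the other 3 p400 arrays gave 0.03 to 0.05, so its gap to the nearest array was large against the range of the 4. This probe was below the limit for testing, and 36 such groups of 4 arrays were looked at, of which chance sets about 1 in 20 apart.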

How the results depend on the processing

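The count of called galectin probes was 6 in p400 knockdown and lay between 4 (arrays scaled to a common spread) and 9 (median centring in place of loess, 7 higher and 2 lower) over 14 alternatives. The 2 lower were the Lgals8 probes (adjusted p = 0.0210 upstream and 0.0322 downstream), in a setting where the median of all probes was -0.098. In Tip60 knockdown the count was 6 and lay between 5 and 6 over 19. It was 5 with the replicate block. Lgals4, Lgals6 and Lgals9 were called higher under every alternative in both knockdowns, with log2 differences of 0.63 to 3.71 in p400 and 0.75 to 2.60 in Tip60 knockdown. With arrays left out 1 at a time, 6 to 7 probes were called in p400 and 5 to 6 in Tip60 knockdown. Lgals3 and Lgals1 were not called in p400 knockdown with arrays scaled to a common spread (adjusted p = 0.054 and 0.0532). Lgals3 was not called in Tip60 knockdown under 5 alternatives (adjusted p from 0.0564 to 0.157). Differences that changed sign were all uncalled. In Tip60 knockdown the upstream Lgals8 probe, at 0.00, was at -0.057 with normexp and quantile normalization, -0.21 with median centring, -0.053 with the series matrix, -0.041 with replicate 3 and -0.022 with the replicate block, and between -0.027 and 0.038 with 1 array left out. Lgals3bp was at -0.048, -0.090, -0.054 and -0.0090 under the first 4 of these, and Lgals1 at -0.056 with median centring. Median centring moved the median of all Tip60 probes by -0.21, and relative to it Lgals3 differed by 0.39 and Lgals1 by 0.15. Over all probes, 9260 were called in p400 knockdown (54.6% of them higher), but 4394 with a common spread (68.1% higher), 4610 without replicate 2, and 29.0% were higher with median centring and 43.2% with the deposited ratios. In Tip60 knockdown 5743 were called (58.3% higher), but 9326 with median centring (20.1%), 2241 within slide 2 (74.7%), 2247 with the replicate block (82.5%) and 3635 without the filter (72.2%). The higher share was 44.7% with quantile normalization and 45.0% with the series matrix. The cause of these changes was not tested. Lgals2 and Lgals12 were near background, so no difference of theirs could be read.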
